A study of Homo sapiens with 12 samples.

Results

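The MCM helicase and origin licensing genes described here are MCM2, MCM3, MCM4, MCM5, MCM6, MCM7, MCM10, CDC6, CDT1 and ORC1. They were chosen by symbol, and all 10 were found among the 59611 symbols of the deposited count table. All 10 also passed the filter on low counts, which left 15218 genes for testing. Messenger RNA was measured in 697 and KOPN-8, which are human B-lineage acute lymphoblastic leukaemia cell lines, in 12 libraries. The edited 697 group held 3 libraries of clone BM_B and the edited KOPN-8 group 3 libraries of clone BA, both made with an sgRNA to SETD2 and labelled heterozygous knockout. Each line had its own control group of 3 libraries, made with the empty vector and labelled SETD2 wild type. SETD2 encodes the main enzyme that trimethylates lysine 36 of histone H3. The cells were untreated and not grown past passage 20. Each edited group is 1 clone, and for the controls the labels leave this unsaid. P-values therefore measure how far libraries of the same clone or control vary, and an effect of the edit cannot be told apart from anything else that sets the clone apart.

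Before S phase, the origin recognition complex, of which ORC1 is a subunit, binds replication origins and recruits CDC6 and CDT1. Together they load the ring of MCM2, MCM3, MCM4, MCM5, MCM6 and MCM7, in which each subunit is present in equal number, around the DNA. In S phase the loaded ring becomes the replicative helicase once CDC45 and the GINS complex join it, and MCM10 takes part in that activation. Most of these genes are textbook targets of E2F transcription factors, which raise their mRNA in proliferating cells at the start of S phase.

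Promoter windows of 300 bases, from 250 before to 50 after an annotated start, were taken from RefSeq for 8 of the 10 genes. No window was found for MCM4 and MCM5. The windows were searched on both strands for 4 E2F-type motifs of 7 letters and for CCAAT. The motifs are TTCCCGC, then TTCGCGC, then TTGCCGC, and last TTGGCGC. An E2F-type motif was present for 7 of the 8 genes, with MCM10 the exception, and CCAAT for 6. These count genes over 10 windows, since MCM7 has several and not all of them hold an E2F-type motif. The shares that follow count windows. Of all 35116 RefSeq windows of this length, 13.0% held an E2F-type motif and 34.6% held CCAAT. Singly, TTCCCGC was in 6.55%, TTCGCGC in 2.24%, TTGCCGC in 2.39% and TTGGCGC in 3.04% of windows. MCM6 and ORC1 are printed because both rose in edited KOPN-8 and share 1 run of letters. MCM10 rose there without a match, and CDC6 has a match and did not pass the test. Each is given 5′ to 3′ on the strand of the gene (GRCh38.p14, RefSeq), with E2F-type matches in capitals.
MCM6, chr2:135876394-135876693, minus strand: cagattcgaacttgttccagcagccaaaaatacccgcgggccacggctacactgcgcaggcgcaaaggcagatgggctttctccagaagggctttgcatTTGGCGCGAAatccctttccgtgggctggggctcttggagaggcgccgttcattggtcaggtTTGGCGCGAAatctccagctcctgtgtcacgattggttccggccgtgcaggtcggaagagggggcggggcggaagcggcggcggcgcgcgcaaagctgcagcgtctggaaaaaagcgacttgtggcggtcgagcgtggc
ORC1, chr1:52404374-52404673, minus strand: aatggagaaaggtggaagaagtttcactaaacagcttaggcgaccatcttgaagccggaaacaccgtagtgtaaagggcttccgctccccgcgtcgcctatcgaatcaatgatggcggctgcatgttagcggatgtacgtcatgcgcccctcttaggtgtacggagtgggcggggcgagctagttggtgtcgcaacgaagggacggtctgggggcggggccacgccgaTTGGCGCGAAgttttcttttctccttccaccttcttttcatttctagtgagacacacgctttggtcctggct
MCM10, chr10:13161308-13161607, plus strand: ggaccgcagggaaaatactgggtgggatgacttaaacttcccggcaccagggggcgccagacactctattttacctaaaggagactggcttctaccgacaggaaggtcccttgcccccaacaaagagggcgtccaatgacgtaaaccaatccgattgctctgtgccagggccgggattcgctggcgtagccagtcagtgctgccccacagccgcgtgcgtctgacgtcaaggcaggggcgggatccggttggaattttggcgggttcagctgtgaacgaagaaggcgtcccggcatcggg
CDC6, chr17:40287629-40287928, plus strand: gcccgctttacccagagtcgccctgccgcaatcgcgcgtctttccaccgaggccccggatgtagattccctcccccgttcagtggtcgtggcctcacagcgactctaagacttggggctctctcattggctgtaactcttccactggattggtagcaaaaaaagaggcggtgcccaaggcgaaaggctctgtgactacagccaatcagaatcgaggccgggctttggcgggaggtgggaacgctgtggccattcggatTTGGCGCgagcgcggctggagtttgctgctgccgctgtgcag

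In MCM6 and ORC1 each capital run is TTGGCGC on the gene's strand overlapping TTCGCGC on the other. MCM6 has 2 such runs, which begin 151 and 89 bases before the start, and ORC1 has 1, which begins 22 bases before it. The 4 MCM6 matches are thus 2 overlapping pairs. A match describes letters only, and a window without one says only that these letters are not in it.

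Library totals ran from 10378769 to 14350925 counts in edited 697 and from 13432744 to 17163305 in control 697. In KOPN-8 they ran from 13239627 to 18278662 counts in the edited group and from 13208436 to 17959678 in the control. The 10 genes were well covered, with 645 to 15060 counts per gene and library, and the lowest of these has a relative counting error of 3.94%. Levels are given as CPM, that is, counts relative to TMM-scaled library sizes. B-lineage markers summed to 4276 to 5166 CPM in the edited groups and 4052 to 4739 CPM in the controls, with at least 9 of 10 at 1 CPM or more in each group. Their sum was higher in the edited than in the control libraries of each line without overlap, though single markers moved both ways. By edgeR (adjusted p under 0.05), 3 of 10 were higher and 1 lower in 697, against 4.85% and 4.6% of all genes. In KOPN-8, 5 were higher and 3 lower, against 11.5% and 17.2%. DNTT had 2441 ± 30.2 CPM in edited and 1966 ± 62.0 CPM in control 697 (SD, n = 3). CD79A had 227 ± 25.2 and 319 ± 48.2 CPM there. T-lineage markers summed to 49.2 to 59.8 CPM in edited KOPN-8 and 77.8 to 96.3 CPM in control KOPN-8, with 1 of 8 at 1 CPM or more and CD3D at 0 counts in all 12 libraries. In edited and control 697 they summed to 35.8 to 44.9 and 37.6 to 49.7 CPM. The part of these markers in the results was not tested. The 6 erythroid genes together stayed at or below 0.0654 CPM. The 8 myeloid markers together reached at most 3.44 CPM. SETD2 mRNA was not lower by the test in edited KOPN-8, with a log2 fold change of -0.10 (SE 0.0689; edgeR, Benjamini-Hochberg adjusted p = 0.309). In edited 697 it was higher, with a log2 fold change of 0.44 (SE 0.0692; edgeR, Benjamini-Hochberg adjusted p = 0.0001025). A disrupted allele can still be transcribed, so these counts do not check the genotype.

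The ring subunits were not equally abundant as mRNA. Levels were compared between genes per kilobase of annotated exons (CPM per kb, GENCODE v29 on GRCh38, whereas the submitters' notes name hg19). MCM7 was highest in every group, at 145 ± 8.58 CPM per kb in edited 697 and 145 ± 11.3 in control 697 (SD, n = 3). It stood at 164 ± 2.97 CPM per kb in edited KOPN-8 and 147 ± 7.84 in control KOPN-8. MCM3 followed with group means of 115 to 140 CPM per kb, and its range did not meet that of MCM7 in any group. MCM5 was the lowest subunit of the ring, at 25.9 ± 2.42 CPM per kb in edited 697, 26.5 ± 3.07 in control 697, 44.1 ± 1.11 in edited KOPN-8 and 30.7 ± 2.96 in control KOPN-8. By this length MCM2, MCM4 and MCM6 lay between, and their order changed with the group and with the length used. In 697, MCM6 and MCM2 overlapped in both groups, and MCM2 also overlapped MCM4 in the control.

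MCM4 held a different place in each KOPN-8 group. In edited KOPN-8 it was the fifth highest gene, at 71.5 ± 1.74 CPM per kb (SD, n = 3), below MCM7, MCM3, MCM2 and MCM6 with no overlap between neighbours. In control KOPN-8 it was the third highest, at 108 ± 8.02 CPM per kb, and its range met that of MCM3. In edited and control 697 it was the fifth highest, at 58.4 ± 2.03 and 63.7 ± 3.68 CPM per kb. The absolute place depends on the length used. By the longest annotated transcript, MCM4 was the fourth highest in edited KOPN-8, the second in control KOPN-8 and the third in both 697 groups.

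The loading factors were scarcer than most of the ring. CDT1, which brings the ring to the origin, had group means of 29.6 to 34.8 CPM per kb and overlapped MCM5 in both controls. By the longest annotated transcript MCM5 had the higher mean in every group. In control KOPN-8 these means were 49.1 for MCM5 and 35.8 for CDT1, without overlap. ORC1 had 17.96 to 22.3 CPM per kb. MCM10 had 15.8 to 19.9 CPM per kb and CDC6, the ATPase that loads the ring with CDT1, had 14.9 to 17.3. In both controls ORC1 overlapped CDC6, and CDC6 overlapped MCM10. In edited KOPN-8 ORC1 overlapped MCM10, while MCM10 lay above CDC6 without overlap.

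**Figure D1:**
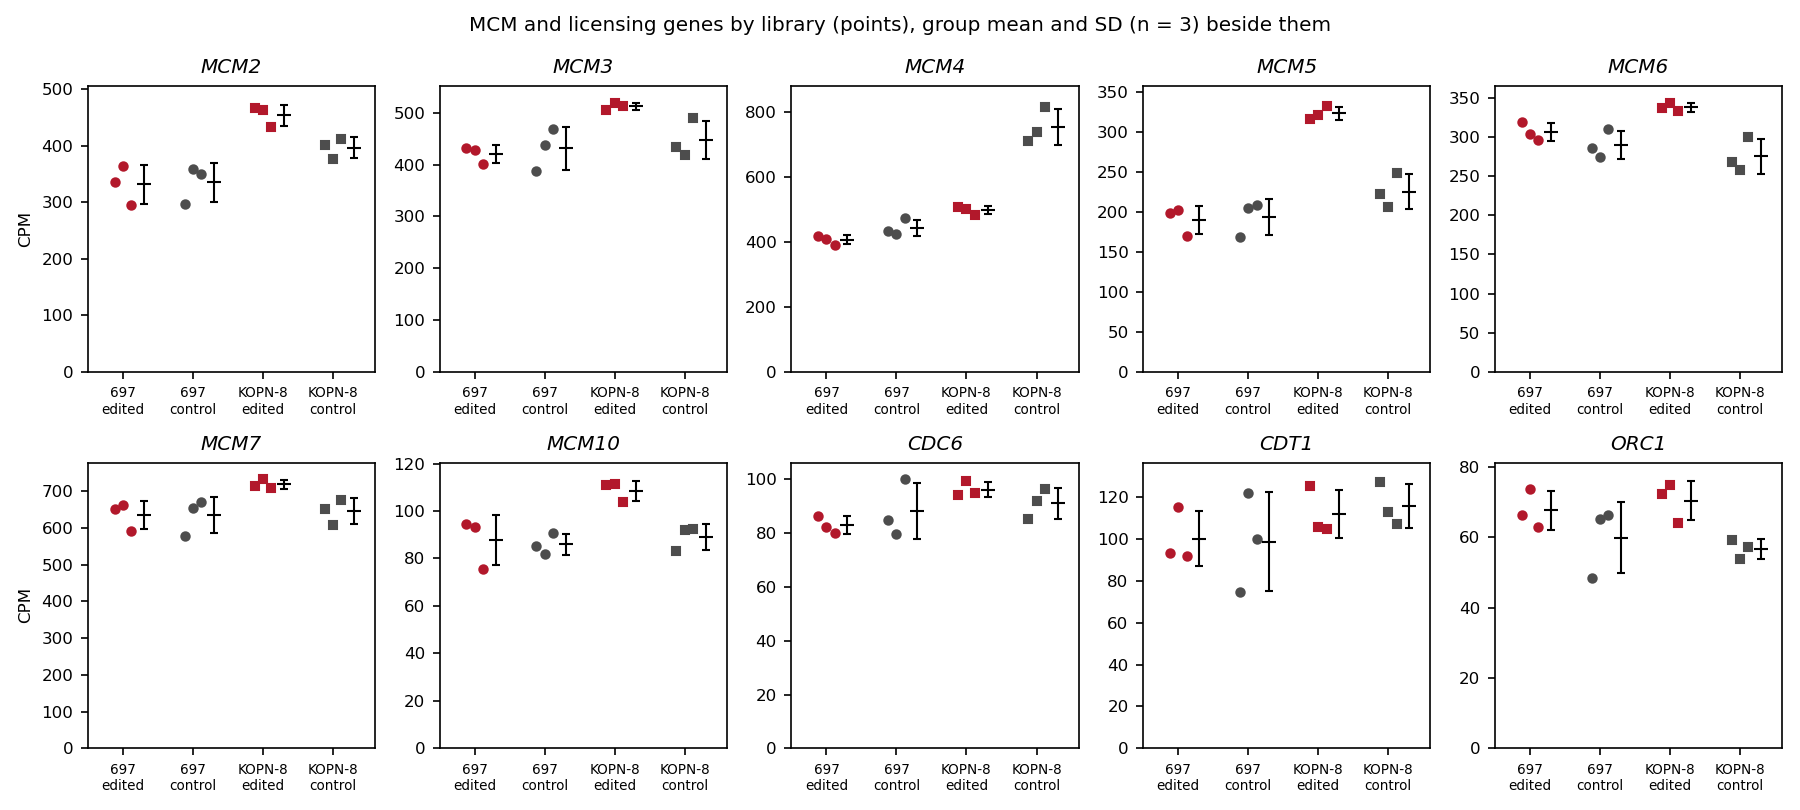
Level of each gene in CPM (vertical axes from 0) in the 3 libraries of edited 697, control 697, edited KOPN-8 and control KOPN-8, with the group mean and SD beside the points. MCM4 stands at 485 to 507 CPM in edited KOPN-8 and at 711 to 818 CPM in control KOPN-8, whereas the other panels show smaller steps.

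The first comparison asked how the genes differed between the edited 697 clone and the 697 control. None of the 10 was called, where called means an adjusted p under 0.05, against 9.45% of all genes tested (4.85% higher and 4.6% lower). The log2 fold changes ran from -0.12 for MCM4 to 0.18 for ORC1, and no gene had an unadjusted p under 0.05. DESeq2 also called 0 of the 10. MCM4 had 421, 410 and 392 CPM in edited 697 and 434, 425 and 473 CPM in control 697. It was the only one of the 10 whose groups did not overlap, being lower in the edited libraries, as 11.6% of all genes tested were. Its log2 fold change was -0.12 (SE 0.0691; edgeR, Benjamini-Hochberg adjusted p = 0.3064).

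ORC1, an ATP-binding subunit of the origin recognition complex, had 66.4, 73.8 and 62.9 CPM in edited 697 and 48.3, 65.1 and 66.2 CPM in control 697. The groups overlapped, since only 1 of the 3 control libraries lay clearly below the edited ones, and the log2 fold change was 0.18 (SE 0.0997; edgeR, Benjamini-Hochberg adjusted p = 0.3069). CDT1 varied widely within the control of this line, at 93.3, 115 and 92.0 CPM in edited 697 and 74.7, 122 and 100.03 CPM in control 697. Its 3 control libraries alone spanned the whole edited range. The remaining subunits, MCM2, MCM3, MCM5, MCM6 and MCM7, had log2 fold changes of -0.04 to 0.08. MCM10 had 87.8 ± 10.6 CPM in edited 697 and 85.9 ± 4.38 CPM in control 697 (SD, n = 3), and CDC6 had 83.0 ± 3.25 and 88.2 ± 10.6 CPM.

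The second comparison asked the same of the edited KOPN-8 clone, and here the members moved in both directions. MCM5, MCM6, MCM10 and ORC1 rose, MCM4 fell, and the other 5 were not called. Of all genes tested, 28.7% were called in this line, 11.5% higher and 17.2% lower. The median log2 fold change of the 10 was 0.20, against 0.00 for all genes tested. Values of 7 genes were higher in every edited library than in every control library, namely MCM2, MCM3, MCM5, MCM6, MCM7, MCM10 and ORC1, and those of MCM4 were lower. Such separation was found for 20.4% of all genes tested in the higher and 24.7% in the lower direction. In these bulk libraries, fewer cells of a kind and less RNA per cell cannot be told apart.

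MCM4, a ring subunit that forms a stable core with MCM6 and MCM7, had 507, 503 and 485 CPM in edited KOPN-8 and 711, 738 and 818 CPM in control KOPN-8. Every edited library lay more than 200 CPM below every control library. The level was 0.659 times that of the control, a log2 fold change of -0.60 (SE 0.0688; edgeR, Benjamini-Hochberg adjusted p = 2.304e-07). Over all settings tried it stayed between -0.64 and -0.54 and was called each time.

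MCM5, which sits beside MCM2 at the gate through which DNA enters the ring, had 317, 321 and 333 CPM in edited KOPN-8. In control KOPN-8 it had 222, 206 and 249 CPM. The groups lay far apart relative to their spread, and the log2 fold change was 0.52 (SE 0.0848; edgeR, Benjamini-Hochberg adjusted p = 4.373e-05). It was called under every setting tried, at 0.46 to 0.60.

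MCM6 had 337, 343 and 333 CPM in edited KOPN-8 and 268, 258 and 300.2 CPM in control KOPN-8. Its 3 edited libraries lay within 11 CPM of each other and above the highest control, with a log2 fold change of 0.29 (SE 0.0685; edgeR, Benjamini-Hochberg adjusted p = 0.001816). MCM10, which helps to turn the loaded ring into a working helicase, had 111, 111 and 104 CPM in edited KOPN-8 and 83.0, 92.0 and 92.6 CPM in control KOPN-8. The log2 fold change was 0.28 (SE 0.0787; edgeR, Benjamini-Hochberg adjusted p = 0.008177). Without replicate 1 of the KOPN-8 control, MCM10 was at 0.23 and no longer called (edgeR, Benjamini-Hochberg adjusted p = 0.06226).

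ORC1 had 72.3, 74.8 and 64.1 CPM in edited KOPN-8 and 59.2, 53.7 and 57.2 CPM in control KOPN-8. The lowest edited library lay about 5 CPM above the highest control, and the log2 fold change was 0.31 (SE 0.0982; edgeR, Benjamini-Hochberg adjusted p = 0.01955). The call was lost without replicate 2 of the KOPN-8 control, where the adjusted p was 0.09357 by the same edgeR test. It was also lost without edited replicate 1 or 2, with adjusted p of 0.06978 and 0.08718 by that test.

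MCM2, MCM3 and MCM7 lay above the control in all 3 edited KOPN-8 libraries without passing the test. MCM2 had 466, 463 and 432 CPM in edited KOPN-8 and 401, 375 and 412 CPM in control KOPN-8, a log2 fold change of 0.20 (SE 0.0795; edgeR, Benjamini-Hochberg adjusted p = 0.06839). MCM3 had 506, 519 and 513 CPM in edited KOPN-8 and 434, 419 and 490 CPM in control KOPN-8, a log2 fold change of 0.19 (SE 0.0745; edgeR, Benjamini-Hochberg adjusted p = 0.05345). MCM7 had 715, 733 and 708 CPM in edited KOPN-8 and 652, 609 and 677 CPM in control KOPN-8, a log2 fold change of 0.15 (SE 0.0713; edgeR, Benjamini-Hochberg adjusted p = 0.1154). All 3 were called when only the 6 KOPN-8 libraries were fitted, and MCM3 was called by DESeq2 (adjusted p = 0.03557). Over 8 alternative settings MCM3 was called in 6, MCM2 in 4 and MCM7 in 1, and over 12 fits that each left out 1 library MCM3 was called in 4 and MCM2 in 2, so that MCM2 and MCM3 lay close to the threshold. Part of the exons of MCM2 and MCM7 lies opposite TPRA1 and AP4M1, whose counts came to 7.95% and 3.52% of the counts of MCM2 and MCM7, and the strand setting of the counting is not given in the sources used here.

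CDC6 and CDT1 did not separate. CDC6 had 94.2, 99.5 and 94.8 CPM in edited KOPN-8 and 85.1, 91.9 and 96.6 CPM in control KOPN-8, a log2 fold change of 0.07 (SE 0.0775; edgeR, Benjamini-Hochberg adjusted p = 0.5255). CDT1 had 126, 106 and 105 CPM in edited KOPN-8 and 128, 113 and 107 CPM in control KOPN-8, a log2 fold change of -0.05 (SE 0.156; edgeR, Benjamini-Hochberg adjusted p = 0.8867). Both loading factors thus had groups that overlapped in both lines. The SE of CDT1 was the widest of the 10 genes in this line.

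**Figure D2:**
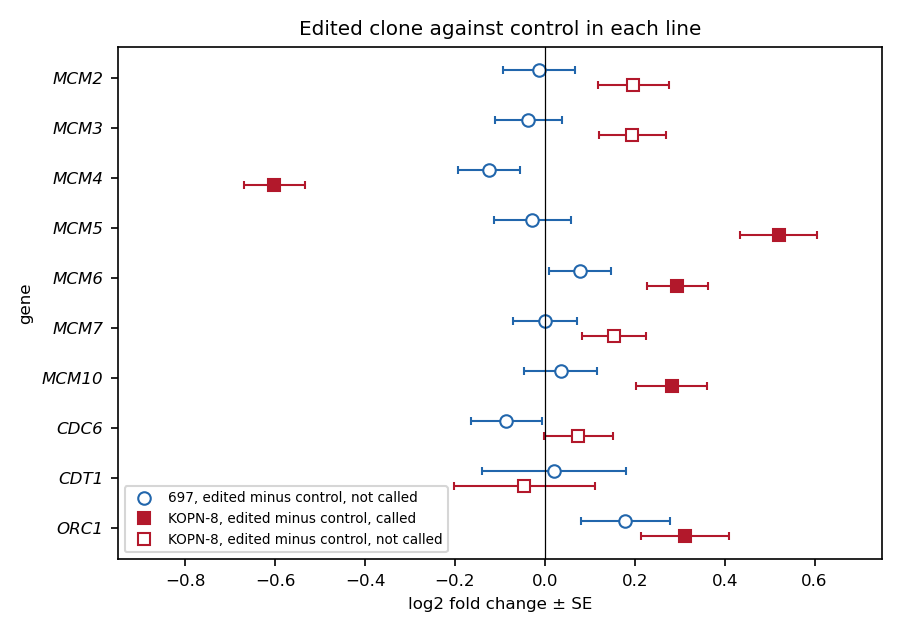
Log2 fold change ± SE of each gene (horizontal axis, edited minus control), with circles for 697 and squares for KOPN-8 and filled symbols for genes that were called. All 697 values lie between -0.12 and 0.18, whereas in KOPN-8 MCM4 stands at -0.60 and MCM5 at 0.52.

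The difference between the lines was tested as the KOPN-8 change minus the 697 change. It was called for MCM4 and MCM5 and for none of the other 8, against 19.5% of all genes tested (7.46% higher and 12.1% lower). For MCM4 it was -0.48 on the log2 scale (SE 0.0973; edgeR, Benjamini-Hochberg adjusted p = 0.0008085). For MCM5 it was 0.55 (SE 0.121; edgeR, Benjamini-Hochberg adjusted p = 0.001856). MCM6 and MCM10, which were called in KOPN-8, differed between the lines by 0.22 (SE 0.0970) and 0.25 (SE 0.112) without passing the edgeR test, with adjusted p of 0.1303 and 0.1359. ORC1 had a positive log2 fold change in both lines, and its difference of 0.13 (SE 0.140) did not pass either. MCM3 was called as well without replicate 1 of the 697 control, at 0.30 (edgeR, Benjamini-Hochberg adjusted p = 0.03068).

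MCM4 was then set against the other ring subunits within each library, as its CPM over the geometric mean CPM of MCM2, MCM3, MCM5, MCM6 and MCM7. This ratio does not depend on library scaling. It was 1.13, 1.11 and 1.09 in edited KOPN-8 and 1.93, 2.12 and 2.05 in control KOPN-8. In 697 it was 1.17, 1.13 and 1.21 in the edited libraries and 1.37, 1.19 and 1.27 in the controls. Control KOPN-8 is the group that stands apart, with every library above 1.9, and the 3 other groups lie between 1.09 and 1.37. On the log2 scale the ratio was lower by 0.87 in edited than in control KOPN-8, at 0.15 ± 0.0282 and 1.02 ± 0.0691 (SD, n = 3; two-sided exact permutation test, p = 0.1). In 697 the means were 0.23 ± 0.0527 in the edited and 0.35 ± 0.101 in the control libraries (SD, n = 3; two-sided exact permutation test, p = 0.2). With 3 libraries against 3, 0.1 is the smallest p this test allows.

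The summed mRNA of the 6 ring subunits did not separate the KOPN-8 groups. It came to 2848, 2882 and 2803 CPM in edited KOPN-8 and 2688, 2605 and 2946 CPM in control KOPN-8. The make-up of that sum differed more. Per kilobase, MCM4 gave 12.02% ± 0.195 of the 6 subunits in edited KOPN-8 and 19.5% ± 0.747 in control KOPN-8 (SD, n = 3). In 697 it gave 12.03% ± 0.315 in the edited and 12.97% ± 0.755 in the control libraries. MCM5 gave 7.42% ± 0.276 in edited KOPN-8 and 5.52% ± 0.181 in control KOPN-8, and 5.33% ± 0.223 and 5.37% ± 0.281 in edited and control 697. MCM2 gave 15.6% ± 0.475 in edited KOPN-8 and 14.5% ± 0.438 in control KOPN-8, and 13.9% ± 0.806 and 13.9% ± 0.697 in edited and control 697. For MCM2 and MCM5 the share in edited KOPN-8 lay above the 3 other groups without overlap, whereas for MCM4 control KOPN-8 lay above the 3 others. Shares of a sum move together, so a lower MCM4 share raises the others.

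**Figure D3:**
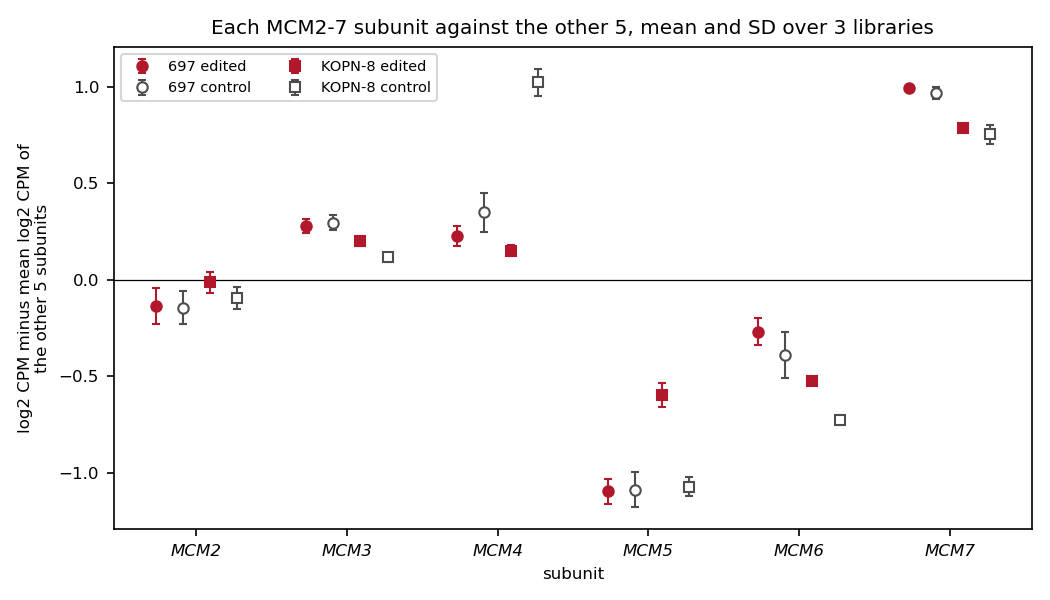
For each ring subunit, its log2 CPM minus the mean log2 CPM of the other 5 (vertical axis), as the mean and SD over 3 libraries, with circles for 697, squares for KOPN-8, filled symbols for edited and open symbols for control libraries. MCM4 in control KOPN-8 stands at 1.02 and in the 3 other groups at 0.15 to 0.35, and MCM5 in edited KOPN-8 stands at -0.60 and in the 3 other groups at -1.10 to -1.07.

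The lines were also compared without the edit, as control KOPN-8 minus control 697. This comparison shares its control libraries with the 2 edited comparisons. MCM2, MCM4 and MCM5 were called higher in control KOPN-8 and the other 7 were not called, against 73.3% of all genes tested (36.6% higher and 36.7% lower). MCM4 had 756 ± 55.9 CPM in control KOPN-8 and 444 ± 25.7 CPM in control 697 (SD, n = 3). Its log2 fold change was 0.77 (SE 0.0690; edgeR, Benjamini-Hochberg adjusted p = 4.515e-10), and the groups did not overlap, as for 38.0% of genes in this direction. MCM2 had 396 ± 18.6 and 335 ± 33.8 CPM in control KOPN-8 and control 697, a log2 fold change of 0.24 (SE 0.0798; edgeR, Benjamini-Hochberg adjusted p = 0.009087). MCM5 had 226 ± 21.7 and 194 ± 22.5 CPM in control KOPN-8 and control 697, a log2 fold change of 0.22 (SE 0.0853; edgeR, Benjamini-Hochberg adjusted p = 0.02698).

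The calls of MCM2 and MCM5 between the controls depended on single libraries. MCM4 was called whichever library was left out, at 0.71 to 0.81 on the log2 scale. Without replicate 1 of the 697 control, MCM2 and MCM5 gave 0.16 and 0.12, with adjusted p of 0.07192 and 0.1823 by edgeR. MCM5 was also not called without replicate 3 of the KOPN-8 control (0.14, edgeR adjusted p = 0.1837). ORC1 was called lower without replicate 1 of the 697 control (-0.21, edgeR adjusted p = 0.03061), and CDT1 was called higher without its replicate 2 (0.41, edgeR adjusted p = 0.01392). The MCM4 ratio to the other ring subunits was higher in control KOPN-8 than in control 697 by 0.67 on the log2 scale (two-sided exact permutation test, p = 0.1). Edited KOPN-8 had a ratio 0.20 lower than control 697 on that scale, given as a description.

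MCM4 lies on chromosome 8, and the other 9 genes lie on 9 other chromosomes. In KOPN-8, genes of chromosome 8 were mostly lower in the edited libraries, with 300 of 511 tested genes called lower, 25 called higher and a median log2 fold change of -0.52. MCM4, at -0.60, had 39.1% of these genes below it. In 697 the chromosome's median log2 fold change was 0.01, with 21 genes called higher and 22 lower. Among the 9 members on other chromosomes, 4 were called higher in KOPN-8 and 0 lower, and their median log2 fold change was 0.20. Of all genes tested, 11.5% were called higher and 17.2% lower in KOPN-8, and 4.85% and 4.6% in 697. Whether the level of the chromosome as a whole set that of MCM4 was not tested.

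Genes next to MCM4 on the chromosome were looked at by name, and 3 of the 5 neighbours listed were tested. SPIDR, a scaffold of homologous recombination repair, had 52.9 ± 2.83 CPM in edited KOPN-8 and 85.6 ± 4.30 CPM in control KOPN-8 (SD, n = 3), a log2 fold change of -0.69 (SE 0.0704; edgeR, Benjamini-Hochberg adjusted p = 3.451e-08). UBE2V2, a ubiquitin-conjugating enzyme variant, had 97.1 ± 3.84 CPM in edited KOPN-8 and 156 ± 2.65 CPM in control KOPN-8, also a log2 fold change of -0.69 (SE 0.0701; edgeR, Benjamini-Hochberg adjusted p = 3.773e-08). PRKDC, the DNA-dependent protein kinase that lies head to head with MCM4, had 629 ± 9.10 CPM in edited KOPN-8 and 708 ± 54.0 CPM in control KOPN-8. Its log2 fold change of -0.17 was not called (SE 0.0705; edgeR, Benjamini-Hochberg adjusted p = 0.07343). Every edited library still lay below every control library for PRKDC, as for 24.7% of all genes tested. MCM4, SPIDR and UBE2V2 were also higher in control KOPN-8 than in control 697, SPIDR by 0.40 and UBE2V2 by 0.60 on the log2 scale, with PRKDC at -0.07 and not called. On the whole chromosome that contrast had a median of 0.09. There 217 of 511 genes were called higher and 194 lower, against 36.6% and 36.7% of all genes tested. MCM4 lay above 76.7% of the 511.

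**Figure D4:**
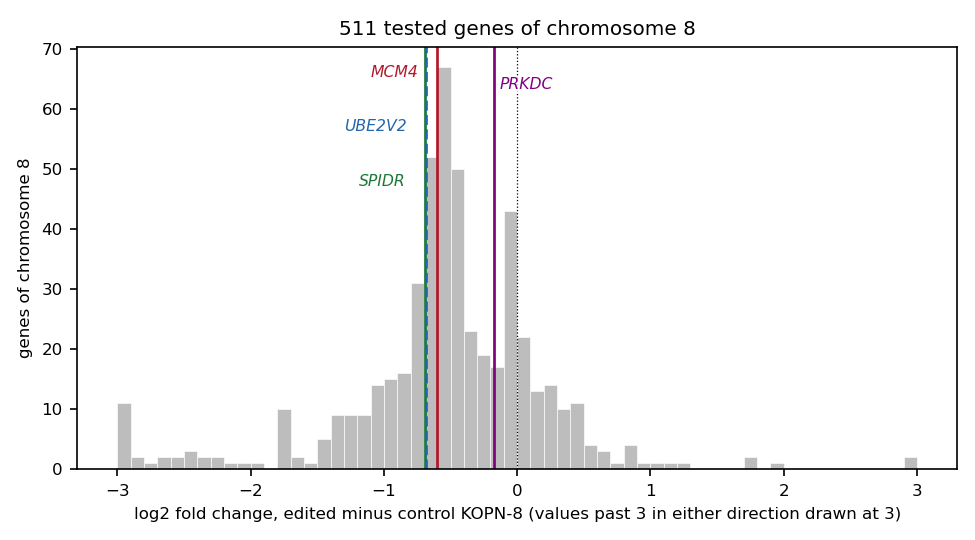
Number of chromosome 8 genes (vertical axis) by log2 fold change in KOPN-8, edited minus control (horizontal axis), for the 511 tested genes, with solid lines at MCM4, SPIDR and PRKDC and a dashed line at UBE2V2, close to that of SPIDR. Values past 3 in either direction are drawn at 3. MCM4 at -0.60 lies near the chromosome's median of -0.52, and PRKDC at -0.17 lies above it.

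Genes with the pattern most like the ring were ranked by the root mean square difference of centred log2 CPM over the 12 libraries, among the 10799 genes that averaged 5 CPM or more, and the genes named are those outside the 10. To the mean of MCM2, MCM3, MCM5, MCM6 and MCM7 the nearest of these were PLAGL2 (0.0442), ZC3H4 (0.0564), DNMT1 (0.0566), DDX39A (0.0587), GINS2 (0.0594) and DERA (0.0596). DNMT1 is the maintenance DNA methyltransferase and GINS2 a subunit of the GINS complex. The median over all genes was 0.335, and MCM4 stood at 0.35. To MCM4 itself the nearest outside the 10 were ATP6V1C1 (0.0692), CCAR2 (0.0725), NAA20 (0.0867), XPO7 (0.0905), LSM1 (0.0920) and TMEM106C (0.0984), of which 4 lie on chromosome 8. That chromosome held 366 genes that averaged 5 CPM or more, MCM4 among them, beside the 10799 genes compared. The median distance of all genes to MCM4 was 0.437, and the other members lay between 0.31 and 0.449. The points share libraries and line, so these distances are a description.

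The genes that act with the members were read as lists. Of 12 other origin recognition and licensing genes, 3 rose and 0 fell in edited KOPN-8, with a list median log2 fold change of 0.09. The shares of all genes tested to set beside this and the following list counts are 11.5% higher and 17.2% lower in KOPN-8, and 4.85% higher and 4.6% lower in 697. The 3 that rose were MCM9 (0.37), a helicase relative that acts in repair, and the origin recognition subunits ORC6 (0.33) and ORC2 (0.23). GMNN, the geminin inhibitor of CDT1, had a log2 fold change of 0.17 and was not called. In 697 none of the 12 was called by edgeR, against 1 called higher with a replicate block, a fit that pairs libraries by replicate number, and 1 by DESeq2. Without replicate 1 of the KOPN-8 control, 1 of the 12 was called higher.

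Origin firing and helicase activation genes moved in both directions in KOPN-8. Of 14, 6 rose and 3 fell, and the list median log2 fold change was 0.14. GINS3, a GINS subunit, had 114 ± 8.32 CPM in edited KOPN-8 and 66.7 ± 5.66 CPM in control KOPN-8 (SD, n = 3), a log2 fold change of 0.77 (SE 0.0886; edgeR, Benjamini-Hochberg adjusted p = 2.519e-07). TOPBP1 (0.27) and TICRR (0.33), which bring CDC45 and GINS to the loaded ring, also rose. MTBP, the partner of TICRR, fell, at 38.2 ± 1.67 CPM in edited KOPN-8 and 55.6 ± 3.28 CPM in control KOPN-8 (log2 fold change -0.54; edgeR, Benjamini-Hochberg adjusted p = 0.0001433). The other 2 that fell, named after their values were seen, were GINS4 (-0.25) and CDC7 (-0.22), the kinase that phosphorylates the ring. MTBP and GINS4 lie on chromosome 8, as does RECQL4 (0.31), which rose and was also named after its value was seen. Of the 11 listed genes on other chromosomes, 5 rose and 1 fell. None of the 14 was called in 697, against 2 called higher with the replicate block. Leaving out control replicate 1 or 3 of that line gave 1 call. Over the 697 fits that left out 1 library, at most 1 was called higher and at most 1 lower. The number called higher was 3 without replicate 2 of the KOPN-8 control, and the number called lower was 1 without control replicate 3 or edited replicate 2.

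Replisome and DNA synthesis genes rose more often than they fell in KOPN-8, with 12 of 27 called higher, 1 lower and a list median log2 fold change of 0.18. RFC5, a clamp loader subunit, had 121 ± 7.41 CPM in edited KOPN-8 and 84.9 ± 6.01 CPM in control KOPN-8 (SD, n = 3; log2 fold change 0.50). CLSPN, the checkpoint mediator claspin that travels with the fork, had 127 ± 2.41 and 87.8 ± 3.20 CPM in edited and control KOPN-8 (log2 fold change 0.53). CHAF1B (0.46), of the chromatin assembly factor, and TIMELESS (0.36), of the fork protection complex, were the other 2 named. RFC2, the 1 gene that fell (-0.23), was named after its value was seen. The count of 12 depended on the libraries. Leaving out replicate 1 or 2 of the KOPN-8 control gave 6 and 4, leaving out edited replicate 1 or 2 gave 5 and 7, and RFC2 was not called without control replicate 3 or edited replicate 3. In 697, 2 of the 27 rose, PRIM1 (0.42), the primase subunit, and RFC1 (0.23). With the replicate block 3 of the 27 rose. When 1 library was left out, at most 1 of the 27 was called lower in 697. RFC1 was not called when only the 6 libraries of 697 were fitted, or without control replicate 1 or 2 or edited replicate 2 or 3 of this line.

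Of 11 genes for turnover of licensing factors, 1 rose and 1 fell in KOPN-8, and the list median log2 fold change was 0.06. CDK2, the S-phase kinase, had 223 ± 7.53 CPM in edited KOPN-8 and 168 ± 2.73 CPM in control KOPN-8 (SD, n = 3; log2 fold change 0.41). CUL4A, a scaffold of the ligase that degrades CDT1, had 132 ± 2.90 and 190 ± 9.11 CPM in edited and control KOPN-8 (log2 fold change -0.52). CUL4A lies on chromosome 13. Mitosis genes, listed for comparison with the replication genes, gave 1 of 20 called lower and 0 higher in KOPN-8 by edgeR, with a list median log2 fold change of 0.04. The 1 gene was PLK1, a mitotic kinase, with 130 ± 7.70 CPM in edited KOPN-8 and 189 ± 4.49 CPM in control KOPN-8 (log2 fold change -0.54). In 697, TTK (0.38) and CCNB2 (0.27) of these 20 rose, 4 rose with the replicate block, and CCNB2 was not called without control replicate 3. None of the 11 turnover genes was called in 697.

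**Figure D5:**
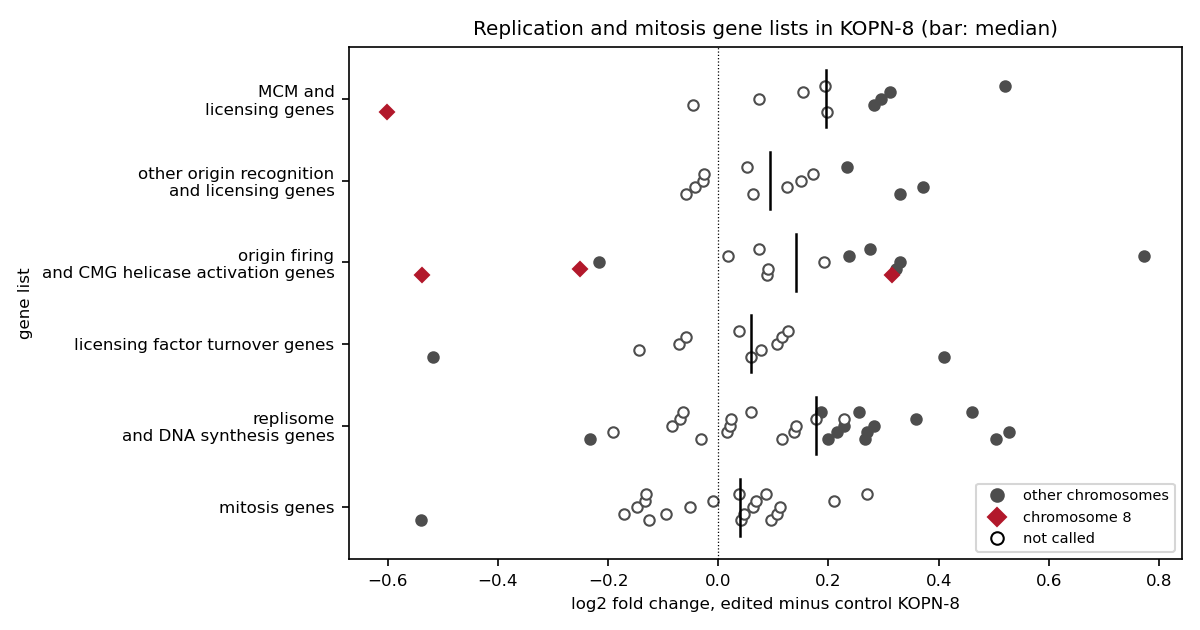
Log2 fold change in KOPN-8, edited minus control (horizontal axis), for each gene of the MCM and licensing genes and of 5 further lists (rows), with diamonds for chromosome 8, filled symbols for called genes and a bar at each list's median. The medians run from 0.04 for mitosis genes to 0.20 for the MCM and licensing genes. The points farthest to the left are MCM4 (-0.60) and MTBP (-0.54) on chromosome 8, PLK1 (-0.54) on chromosome 16 and CUL4A (-0.52) on chromosome 13.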

How the data were processed

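RNA-seq of poly-A-selected RNA, by a stranded method, covered 697 and KOPN-8 cells, with 3 libraries in each of 4 groups taken from the sample labels. The submitters' processing notes name Trimmomatic, STAR, DESeq2 and the hg19 build. Versions, the read counter, its strand setting and its annotation are not given in those notes or the labels. The authors deposited the table used, in which each symbol has a whole-number count of reads in each library. The authors also deposited a normalized signal, in which each count was divided by 1 factor per library; it served 1 alternative only.

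edgeR 4.0.16 under R 4.3.3 was run on the counts of all 12 libraries, with filterByExpr by group, TMM factors and robust quasi-likelihood F tests. The 15218 genes tested held at least 99.88% of each library's counts. P-values were adjusted over all of them by Benjamini-Hochberg, and "called" means an adjusted p under 0.05. The SE is the size of the log2 fold change over the root of its F statistic. Ratios within libraries were compared by exact permutation tests. Exon lengths and chromosomes came from GENCODE v29 on GRCh38, so lengths are approximate for counts made on hg19. Promoter windows came from RefSeq (GRCh38.p14). The code was also run on simulated counts with the same dispersion for every gene and no replicate effect. That setting is simpler than these data, so no conclusion is drawn from it.

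Members, lists and tests were chosen with earlier results of these data known. Beyond the members, the text names up to 4 called genes per list and line by smallest p, the tested neighbours of MCM4, and the 6 genes nearest to each of 2 profiles. Genes named otherwise are marked or given as values only. The labels name biological replicates without saying how the cultures were separated, so the spread may be technical. Replicates differed beyond sampling noise (chi-square over its degrees of freedom, 2.92 to 10.8).

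Pairing by replicate number was checked by correlating each library's deviation from its group mean with that of its namesake. In 697 the 3 pairs gave r = 0.105, 0.207 and 0.104, all above 0.1, so pairing was accepted from the data alone. In KOPN-8 the pairs gave 0.0508, 0.0362 and 0.0743, and pairing was not accepted. The reported fit has no block, so its p-values and shares of genes called in 697 leave this pairing out. The replicate block was an alternative. Other alternatives were DESeq2 size factors, upper-quartile scaling, TMM without chromosome 8, no filter on low counts, the DESeq2 1.42.0 test, limma 3.58.1 on log2 of the authors' deposited normalized values plus 1, each line fitted alone, and leaving out each library in turn.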

Additional observations from a re-analysis of the deposited data

Results flagged for a closer look

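MCM4 and MCM5 were the members whose change differed between the lines by a test of the difference itself. Thus 1 of the 10 members was called higher and 1 lower, against 7.46% and 12.1% of all genes tested. The KOPN-8 change minus the 697 change was -0.48 on the log2 scale for MCM4 (SE 0.0973; edgeR, Benjamini-Hochberg adjusted p = 0.0008085), with all 3 edited KOPN-8 libraries below all 3 controls. For MCM5 it was 0.55 (SE 0.121; edgeR, Benjamini-Hochberg adjusted p = 0.001856), with all 3 edited KOPN-8 libraries above all 3 controls. Such separation in KOPN-8 was found for 24.7% of all genes tested in the lower and 20.4% in the higher direction. Both differences were called under every alternative in which they were computed.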

How the results depend on the processing

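The changes of MCM4 and MCM5 in KOPN-8, and their differences between the lines, kept direction and call under every alternative. The number of members called in KOPN-8 was 5, and 8 with only the line's 6 libraries, and it ran from 4 to 7 when 1 library was left out. All genes called in KOPN-8 moved too, with 4370 of 15218 in the reported fit and 3395 to 4560 when 1 library was left out. For the fit to the line's 6 libraries no such count is given here, so the 8 stands without it. In 697 the number of members called was 0 under every alternative. With the replicate block, all genes called in 697 numbered 2319 against 1438 without it, while no member was called. In KOPN-8, whose numbers were not taken as paired, the block added MCM2 and MCM3 (adjusted p = 0.02002 and 0.01627 by edgeR), and both were also called without the filter and with upper-quartile scaling. Upper-quartile scaling put the median of all genes between the controls at -0.10, and there MCM2 and MCM5 were not called (0.15 and 0.13) and MCM6 was called lower (-0.165). With the replicate block CDT1 was called higher between the controls (0.25). MCM3, MCM7, MCM10 and CDC6, not called between the controls, changed sign under that scaling (-0.036, -0.065, -0.035 and -0.039). MCM7 in 697, at -0.00011, changed sign with DESeq2 size factors (0.0011), the DESeq2 test (0.0012), TMM without chromosome 8 (0.00064), limma (0.0059), no filter (0.00099), the replicate block (0.0014) and upper-quartile scaling (0.0019). Leaving out 1 library at a time turned uncalled values near 0. In 697 these ran from -0.15 to 0.0087 for CDC6, -0.15 to 0.20 for CDT1, -0.022 to 0.13 for MCM10, -0.094 to 0.062 for MCM2, -0.11 to 0.023 for MCM3, -0.12 to 0.046 for MCM5, -0.063 to 0.048 for MCM7 and -0.024 to 0.10 for UBE2V2. CDT1 ran from -0.14 to 0.026 in KOPN-8 and from -0.25 to 0.10 for the line difference. Between the controls CDC6 ran from -0.017 to 0.13, MCM3 from -0.019 to 0.10 and MCM7 from -0.038 to 0.066. The causes were not tested. Counting error was at most 3.94% per member and library, and with 3 libraries a group an uncalled change does not show that groups were alike.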
